A study of Mus musculus with 4 samples.

Results

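Foxr2, a forkhead protein, was mapped in cells of a mouse brain tumor line, and 1400 of its 11947 reproducible sites (11.7%) lay in introns, away from any gene start. A reproducible site is a stretch of DNA covered by called peaks of both Foxr2 replicates. These 1400 sites were chosen by 3 properties of the peaks, a fold enrichment above 6 and a length under 10000 bp in each replicate and no overlap of 10 bp with a peak of the control line, and by position. A site had to lie wholly in the body of a protein-coding gene, to touch no annotated exon, and to be over 1 kb from the start of every annotated transcript of any gene type. Of the other sites, 8507 were within 1 kb of a start, 1645 were intergenic and 395 overlapped an exon away from starts.

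The sites were measured by CUT&RUN, in which a nuclease tethered to an antibody cuts free the DNA around a bound protein. The antibody was against the V5 tag, and the study asked which genes Foxr2 binds in these tumor cells. Foxr2 p53LOF (genotype FOXR2 P53LoF) was a neurosphere line from a tumor made by in utero electroporation of C57BL/6J mice with a vector for V5-tagged Foxr2 together with loss of p53 function. Expression was under the CAG promoter, which is active in most cell types. The vectors went into the ganglionic eminence of the embryo, and p53 was disrupted with a CRISPR guide to Trp53. The V5 control came from another electroporation model of the same strain (genotype H3.3G34R) without the tag. Each group had 2 replicates of 500000 cells, cross-linked with 0.1% formaldehyde for 1 minute. Both Foxr2 replicates came from the same line, so their agreement says nothing about other tumors, and both groups went through electroporation and culture. The control differs from Foxr2 p53LOF in its tumor genotype as well as in the tag.

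Introns hold many of the enhancers of the mouse genome, stretches to which transcription factors bind and from which they act on a start that may be far away. In glial cells, SOX factors, NFI factors and the basic helix-loop-helix factor OLIG2 bind such elements, and the long introns of developmental genes carry many of them. A CUT&RUN peak shows that the tagged protein was near the DNA, either bound to it directly or held there by another protein.

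The fold enrichment at the summit of a peak is the number of fragments plus 1, divided by the background of that library plus 1. At the intronic sites its median was 7.95 in replicate 1 (range 6.19 to 38.4) and 9.86 in replicate 2 (6.24 to 48.0). These folds chose the sites and are given as a description. They rest on a median of 17 and 29 fragments at the summit. The sites had a median length of 1458 bp (interquartile range 1057 to 1970 bp) and covered 2.27 Mb. The 10 sites with the highest lower fold of both replicates lay in Fam178b, Pde4d, Cyth1, Tspan14, Atf7, Specc1, Bahcc1, Fnip2, Tom1l2 and D630045J12Rik.

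The DNA at the summits is printed for 8 of these 10 sites, to show how much of it holds a known motif. Each line gives 120 bases around the midpoint of both summits, forward strand of GRCm38 (RefSeq sequence), with any match to the motifs described below in capitals. In Fam178b and Bahcc1 the summits of the replicates lay too far apart for such a window to hold them.
Pde4d, chr13:109823540-109823659: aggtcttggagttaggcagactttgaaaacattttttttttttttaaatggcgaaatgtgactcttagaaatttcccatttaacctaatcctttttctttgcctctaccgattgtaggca
Cyth1, chr11:118197992-118198111: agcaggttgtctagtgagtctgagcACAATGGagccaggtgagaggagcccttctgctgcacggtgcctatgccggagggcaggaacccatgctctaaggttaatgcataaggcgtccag
Tspan14, chr14:40956181-40956300: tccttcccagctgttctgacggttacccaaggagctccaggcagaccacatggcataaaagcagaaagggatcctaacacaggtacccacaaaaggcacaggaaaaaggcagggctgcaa
Atf7, chr15:102584168-102584287: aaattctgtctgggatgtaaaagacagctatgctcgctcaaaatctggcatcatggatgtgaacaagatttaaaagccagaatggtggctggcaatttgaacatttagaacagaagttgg
Specc1, chr11:62106461-62106580: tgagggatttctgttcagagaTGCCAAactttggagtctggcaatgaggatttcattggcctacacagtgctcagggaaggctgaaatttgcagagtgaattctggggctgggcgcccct
Fnip2, chr3:79559369-79559488: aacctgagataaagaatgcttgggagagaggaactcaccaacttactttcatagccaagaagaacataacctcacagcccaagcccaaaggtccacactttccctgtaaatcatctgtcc
Tom1l2, chr11:60311268-60311387: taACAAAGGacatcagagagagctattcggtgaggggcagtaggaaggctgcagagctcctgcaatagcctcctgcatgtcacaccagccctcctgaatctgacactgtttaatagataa
D630045J12Rik, chr6:38224725-38224844: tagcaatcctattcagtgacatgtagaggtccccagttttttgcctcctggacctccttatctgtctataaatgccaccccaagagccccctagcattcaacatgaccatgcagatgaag
A marked motif was present in 3 of these 8 windows and absent from the other 5. The share of other intronic windows of this length with a marked motif is not given, so this count shows no excess. Cyth1 and Tom1l2 each held a SOX motif (ACAATGG in the first and ACAAAGG in the other). Specc1 held a short NFI motif (TTGGCA, on the other strand).

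Fam178b held the strongest site, in its first intron at chr1:36671529-36674423. Its fold was 38.4 in replicate 1 (95% interval 30.8 to 47.4, from the number of fragments at the summit) and 46.0 in replicate 2 (38.7 to 54.2). Both folds were above those of the other 9 of these sites and their intervals overlapped. Pde4d, which encodes an enzyme that breaks down cyclic AMP, held the next, at chr13:109821128-109825307 in its seventh intron, with folds of 30.5 and 28.6. In Cyth1, an exchange factor for ARF GTPases, the site at chr11:118196639-118200243 had folds of 28.3 and 33.5. In Tspan14, a tetraspanin, the site at chr14:40955098-40959667 had folds of 28.3 and 28.9. The site in Atf7, a bZIP transcription factor, lay at chr15:102582983-102587143 with folds of 27.8 and 35.5. The other 5 had folds from 23.4 to 26.5 in replicate 1 and from 25.95 to 35.8 in replicate 2. The nearest start was from 4936 bp (Cyth1) to 63907 bp (Pde4d) away from these 10 sites. The lower fold passed 20 at 15 intronic sites (1.07%), against 587 sites at starts (6.90%).

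The folds of the replicates were shifted against each other. The fold was higher in replicate 2 at 1103 sites (78.8%), in which the same site also held more fragments. At 1365 sites (97.5%) the intervals of both folds overlapped, at 33 replicate 2 was higher beyond them and at 2 replicate 1 was. Both folds had to pass 6 for a site to be chosen and most were not far above it, so this overlap is no measure of reproducibility. Across the 1400 sites Spearman's rank correlation of the folds was 0.60, a description only, since sites share a library and low folds are cut off at 6. The summits lay within 100 bp of each other at 48.9% of sites, with a median gap of 107.5 bp. Both summits fell inside the shared stretch at 1278 sites (91.3%). At the others the fold printed for the site was reached elsewhere in the peak, as in Setd5, where replicate 2 had a fold of 48.0 and replicate 1 of 9.28, and the summits were 5092 bp apart. Neighbouring sites may also share a peak: the 1400 sites came from 1394 peaks of replicate 1 and 1362 of replicate 2.

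**Figure D1:**
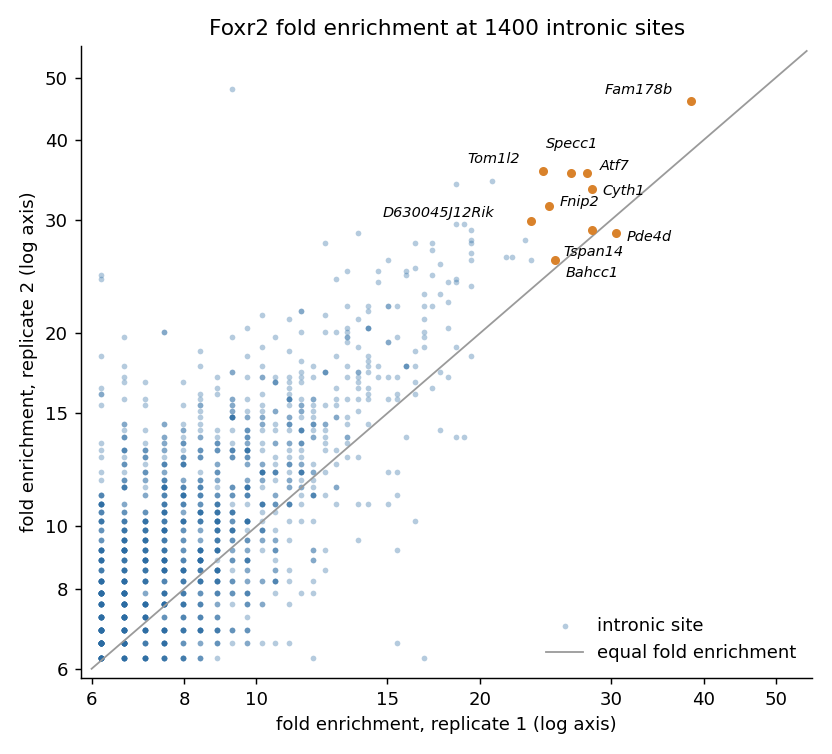
Fold enrichment of each of the 1400 intronic sites in Foxr2 p53LOF replicate 1 (x axis) and replicate 2 (y axis), both on log axes, with the line of equal folds in grey and the 10 named sites in orange. Most points lie above the line (78.8% are higher in replicate 2), and the columns at low folds are whole numbers of fragments.

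The members closest to the fold limit had 13 fragments in replicate 1 (fold 6.19, 184 sites) or 18 in replicate 2 (fold 6.24, 53 sites). Peaks just outside had folds of 5.74 and 5.91. With no minimum fold there were 5260 such intronic stretches, and the 3860 left out had median folds of 4.86 and 5.26. The member nearest to a start was 1004 bp away, in Chn2. Under the same fold and length limits, the control replicates held 26 intronic peaks of 167 and 13 of 107, and 13 intronic stretches were shared between them. The control filter removed 14 intronic Foxr2 sites. Of intronic peaks past the filters, 79.8% in replicate 1 and 59.1% in replicate 2 overlapped a site.

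The classes of site differed in the folds that chose them, given here as a description. The lower fold was above 10 at 21.5% of intronic, 24.6% of intergenic, 27.8% of exonic and 46.1% of start sites. The median GC content of the central 200 bp was 47.0% at intronic, 48.0% at intergenic and 62.5% at start sites, against 42.5% in 834819 windows of 200 bp laid every 1 kb over the same introns. Repeats, as marked in lower case in the RefSeq sequence, made up most of the window at 66 of 1399 sites (4.72%) and at 22.7% of those windows. Reads from repeats are hard to place in the genome, and the part of alignment in this gap was not tested.

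Where in their genes the sites lay differed from where intronic DNA lies. The first intron of the longest coding transcript held 512 of 1366 placed sites (37.5%, 95% interval 34.95 to 40.1), and 26.5% of the eligible intronic bases, which are those in no exon and over 1 kb from every start. The fifth and later introns held 319 (23.4%, 21.2 to 25.7) and 39.1% of bases. The second held 19.8% of sites and 16.4% of bases. Another 34 sites lay outside the introns of the longest coding transcript. Distance to the nearest start had a median of 11993 bp, 54.9% of sites were over 10 kb away, and 49 were over 100 kb away. The farthest, in Astn2, an astrotactin of migrating neurons, was 346000 bp from any start, with folds of 8.84 and 10.2. Density was between 1.73 and 1.84 sites per Mb of eligible intron in each band up to 20 kb, 1.59 from 20 to 50 kb, 1.03 from 50 to 100 kb and 0.882 beyond. Intervals of the last 2 bands did not reach those of the bands up to 20 kb.

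**Figure D2:**
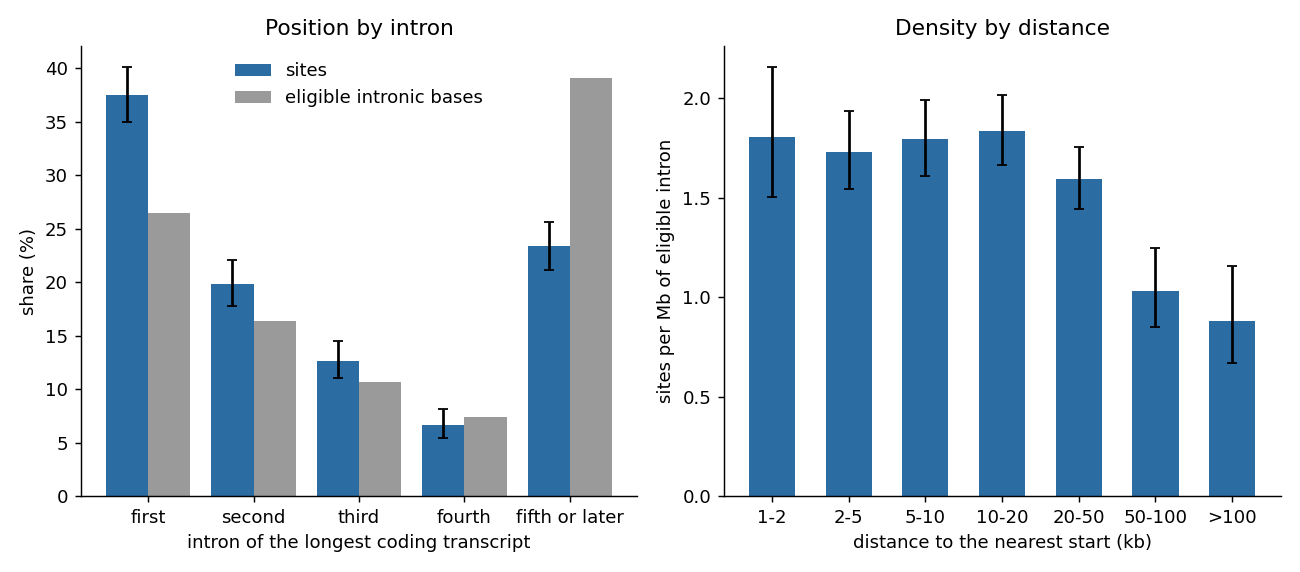
Left, the share of 1366 intronic sites (blue, with 95% Wilson intervals) and of eligible intronic bases (grey) in the first to the fifth and later introns. Right, sites per Mb of eligible intron by distance to the nearest start, with 95% intervals. The first intron holds 37.5% of sites and 26.5% of bases, and the density falls to 0.882 beyond 100 kb.

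The sites fell in 965 protein-coding genes, 5.44% of the 17740 that have at least 1 kb of eligible intron. Each site was named for one gene, which gave 952 names, as 33 sites lay in more than 1 gene. Long genes held more. The share of genes with a site was 0.383% at 1 to 10 kb of eligible intron, 2.59% at 10 to 30 kb, 7.53% at 30 to 100 kb, 21.9% at 100 to 300 kb and 32.1% above that. The median host gene had 105 kb of eligible intron and the median of all 17740 genes was 16.9 kb. A single site was found in 685 of the named genes and 5 or more in 19, and 715 sites (51.1%) lay in genes with 2 or more.

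Host genes also held a Foxr2 site at their own start more often than other genes. This was so for 633 of 965 hosts (65.6%, 62.5 to 68.5), for 43.1% of all 17740 genes and for 41.8% of the genes with no intronic site. The gap was seen in each band of intron length, among them 68.0% against 36.8% at 1 to 10 kb, 65.4% against 39.2% at 100 to 300 kb, and 56.4% against 26.4% above 300 kb. At a minimum fold of 10 for all sites the shares were 38.2% of 275 hosts and 21.1% of other genes. At 86 intronic sites (6.14%) a peak behind the site reached within 1 kb of a start, and without these sites the shares were 64.4% and 41.9%. Start and intronic sites come from the same libraries and filters.

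**Figure D3:**
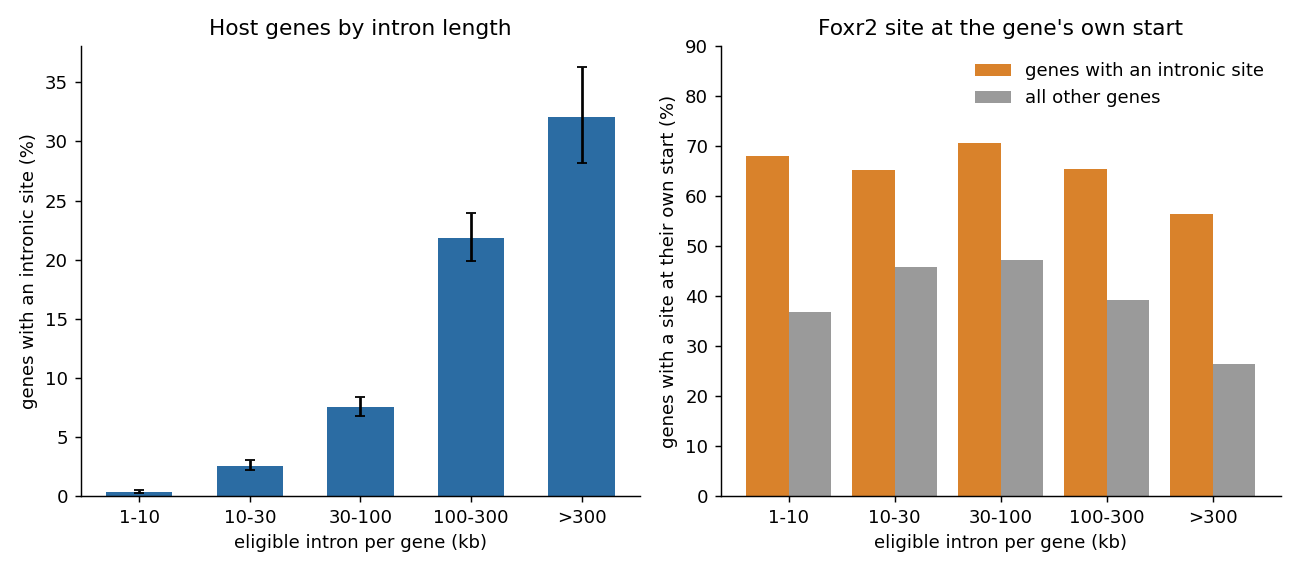
Left, the share of protein-coding genes with an intronic Foxr2 site by their length of eligible intron, with 95% Wilson intervals. Right, the share of genes with a Foxr2 site within 1 kb of their own start, for genes with an intronic site (orange) and all others (grey). In each length band the orange bar is higher, from 56.4% to 70.7% against 26.4% to 47.3%.

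Density differed between chromosomes. It was 1.61 sites per Mb of eligible intron over all, 3.15 on chromosome 11 (95% Poisson interval 2.66 to 3.70), 3.01 on chromosome 15 (2.45 to 3.65), 2.59 on chromosome 13 (2.09 to 3.18), 0.718 on chromosome 12 (0.465 to 1.06) and 0.101 on the X (0.0275 to 0.258, from 4 sites). Chromosomes 11, 13 and 15 held 24.2% of sites and 13.3% of bases. Median folds on these 3 were 7.73 to 8.39 in replicate 1, close to the 7.95 of all sites. A peak list does not show the number of copies of a chromosome in the line, so copy number and binding cannot be told apart here. Without these chromosomes 65.2% of hosts and 39.7% of other genes held a site at their own start.

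Some genes held rows of sites. Pde4d and Cdkal1, whose product modifies transfer RNA, held 10 each, Rptor (the Raptor subunit of mTORC1) and Tnr (tenascin-R, a matrix protein of oligodendrocytes) 8 each, and Gse1 7. Ets1, Sox6, Slc39a11 (a zinc transporter) and Arhgap15 (which inactivates Rac) held 6 each. Gm20388 is credited with 8, but it is a model of 4.43 Mb on chromosome 8 that runs over many genes. In Pde4d the sites spread over 548 kb and 3 introns, with folds of 6.19 to 30.5 in replicate 1 and 6.57 to 28.6 in replicate 2, so 1 site stood far above the others. In Slc39a11 all 6 lay in 1 intron within 34.9 kb. In Tnr, 7 of 8 lay in the first intron, with folds of 6.63 to 13.7 and 7.56 to 18.4. In Rptor the strongest 2 sites, at chr11:119708548-119711312 and chr11:119758132-119759925, had folds of 17.2 and 26.9, and 15.02 and 19.4. Altogether 258 sites (18.4%) had another intronic site within 10 kb. Neighbouring sites in Rptor, Tnr, Gse1, Sox6, Slc39a11 and Arhgap15 shared a peak of a replicate, so their counts are not of separate peaks. Over all intronic sites, 76 shared a peak of replicate 2 and 12 a peak of replicate 1.

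The DNA at the strongest sites of 6 genes described next is shown beside their folds, with the same length, strand and capitals as above, and each window holds the summits of both replicates.
Ets1, chr9:32667882-32668001: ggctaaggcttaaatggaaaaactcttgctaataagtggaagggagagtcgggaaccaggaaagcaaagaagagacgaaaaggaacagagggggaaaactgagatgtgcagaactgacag
Sox6, chr7:115669588-115669707: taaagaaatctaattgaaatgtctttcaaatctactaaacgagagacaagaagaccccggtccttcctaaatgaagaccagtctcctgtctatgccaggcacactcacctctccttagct
Lhfpl3, chr5:23165602-23165721: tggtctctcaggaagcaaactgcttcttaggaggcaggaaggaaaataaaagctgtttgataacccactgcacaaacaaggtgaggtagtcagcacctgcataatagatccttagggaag
Nfia, chr4:97869144-97869263: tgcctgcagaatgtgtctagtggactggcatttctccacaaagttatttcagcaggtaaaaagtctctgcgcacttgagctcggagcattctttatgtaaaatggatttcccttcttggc
Igf1r, chr7:68129344-68129463: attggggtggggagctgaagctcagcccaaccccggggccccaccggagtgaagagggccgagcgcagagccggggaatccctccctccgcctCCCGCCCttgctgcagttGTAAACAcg
Myrf, chr19:10232946-10233065: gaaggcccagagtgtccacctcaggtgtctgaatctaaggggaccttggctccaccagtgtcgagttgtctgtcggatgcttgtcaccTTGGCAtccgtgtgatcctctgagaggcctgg
No marked motif was in the windows of Ets1, Sox6, Lhfpl3 and Nfia. Igf1r held a KLF/SP and a forkhead motif and Myrf a short NFI motif. These last 2 were picked for the motifs they hold. Of 198 such windows at the sites of named genes and list members, 104 held both summits, and 31 of these 104 held a marked motif. This count also has no share of other intronic windows of the same length beside it, so it shows no excess.

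In the gene lists, 71 of 293 listed genes with at least 1 kb of eligible intron held an intronic site, as did 965 of all 17740 such genes (5.44%). These counts are not at like intron length. Since long genes hold more sites, each list's count was set beside the sum, over its members, of the share of all 17740 genes of like intron length that hold one. The lists were made with earlier results of these data known, and the counts are a description.

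Among oligodendrocyte lineage genes, 5 of 21 held a site, and the shares add up to 2.00. Cspg4, the NG2 proteoglycan of oligodendrocyte progenitors, held 3, the strongest at chr9:56879766-56882490 in its first intron with folds of 16.8 and 22.01. That site and the next strongest in Cspg4 shared a peak of replicate 2. Lhfpl3, a membrane protein of the same progenitors, held a site at chr5:23164323-23167277 with folds of 16.8 and 20.04. In Myrf, the transcription factor that switches on myelin genes, the site at chr19:10232064-10233958 had folds of 11.5 and 14.1. Mbp, myelin basic protein, held 2, with folds of 11.05 and 21.03 at the stronger. Zfp536, a zinc finger protein, held a weak one, with folds of 6.63 and 9.20. Only Mbp and Zfp536 of these 5 also had a site at their own start. Sox10, Pdgfra, Mag and Mog were among the 16 with none in introns, though Sox10 and Pdgfra had a site at their own start. Olig1, Olig2, Sox8 and Gpr17 have too little intron to be counted.

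Among astrocyte and radial glia genes, 6 of 19 held a site, and the shares add up to 1.57. The NFI factors, which switch on glial genes, made up 3 of the 6. Nfia held 3 sites, the strongest at chr4:97868028-97870447 with folds of 15.9 and 17.7. The weaker sites of Nfia shared a peak of replicate 2. Nfix held 2, with folds of 10.6 and 9.20 at the stronger, and Nfib held 1 with folds of 6.63 and 11.8. Slc1a3, the glutamate transporter GLAST, had folds of 13.3 and 13.8 at chr15:8659165-8661217. The sites in S100b, a calcium-binding protein, and Tnc, tenascin-C, had folds of 7.07 to 8.87. Sox9, Gfap, Aqp4 and Fabp7 were among the 13 with none in introns, though Sox9, Gfap and Fabp7 had a site at their own start.

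In the SOX family only 7 of 19 genes have an eligible intron, and 2 of them, both of the SOXD group, held 11 sites. The shares add up to 0.694. Sox13, the other SOXD gene, has 33.4 kb of eligible intron and held none. Sox6 had 6, with folds of 18.6 and 24.3 at chr7:115665875-115670251 and of 6.19 to 9.72 in replicate 1 at the other 5. One of these 5 shared its replicate 2 peak with the strongest. Sox5 had 5, all weak, with folds of 6.63 to 7.51 in replicate 1 and of 7.23 to 11.2 in replicate 2. Both genes had a site at their own start. Sox9 (1.19 kb of eligible intron) and Sox10 had none in introns. Each of them had a site at its own start, as had 43.1% of all 17740 genes.

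In the ETS family 5 of 24 genes held a site, and the shares add up to 1.72. Ets1, an activator downstream of Ras signaling, held 6 over 71.0 kb. The strongest, at chr9:32666799-32669875, had folds of 23.0 and 27.9, and the others ran from 6.63 to 10.2 and from 6.90 to 14.5. Of the 6, 5 lay outside the introns of its longest coding transcript. Elf2 had folds of 13.7 and 17.4 at chr3:51332405-51334987. Etv6, a repressor, held 3 sites of up to 8.39 and 8.87. Elk3 had folds of 7.95 and 8.54, and Etv5, of the PEA3 group, 9.72 and 7.23. Ets1, Elf2, Etv6 and Etv5 also had a site at their own start. Etv1, Etv4, Gabpa, Elk1 and Elk4 were among the 19 with none in introns, though Etv4, Gabpa and Elk4 had a site at their own start.

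Among genes that pattern the ganglionic eminence, the source of cortical interneurons, or mark interneurons, 2 of 14 held a site and the shares add up to 1.01. These were Erbb4, the neuregulin receptor, with folds of 8.39 and 10.5, and Nxph1, a neurexin ligand, with folds of 6.19 and 8.87. Lhx6, Lhx8, Dlx5, Gad1 and Gad2 had none. Among dorsal telencephalon genes 1 of 14 held a site, Bcl11b, a transcription factor of deep-layer neurons, with folds of 6.63 and 7.56, and the shares add up to 1.202.

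Notch and Hedgehog genes held sites in 7 of 22, with shares adding up to 2.23. The receptors Notch1 and Notch2 held 2 each, with folds of 11.5 and 14.1 at chr2:26485589-26488896 and of 11.05 and 9.53 at chr3:98042515-98044038. Maml3, a Notch coactivator, held 3, with folds of 10.2 and 11.5 at the strongest. Ptch1, the Hedgehog receptor, held a site of folds 9.28 and 13.5 at chr13:63551582-63557579. Maml2, Cdon and Gli3 had weaker ones.

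Among receptor tyrosine kinase and Ras-MAPK genes, 8 of 32 held a site, and the shares add up to 4.33. The insulin and IGF receptors led: Insr had folds of 15.5 and 15.8 at chr8:3220246-3222341, and Igf1r held 3 sites with folds of 14.1 and 16.4 at chr7:68127805-68131195. The weaker sites of Igf1r shared a peak of replicate 2. Fgfr1, Erbb4 and Nf1, a brake on Ras, had folds of 7.51 to 8.39 in replicate 1 and of 9.53 to 11.2 in replicate 2. Fgfr2 is credited with 2 sites, but its annotated model has 2561 kb of eligible intron, and the stronger site was 749674 bp from its start and 7250 bp from that of another transcript.

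The last 3 lists stood near the shares of like genes. Axon guidance genes held sites in 9 of 30 (6.83), led by Nrp2, a semaphorin receptor, with folds of 9.72 and 10.8, Sema6a with 9.72 and 11.5, and the netrin receptors Unc5c with 9.28 and 12.8 and Unc5a with 7.95 and 7.88. Synaptic adhesion and other long neuronal genes held sites in 9 of 32 (9.64). Opcml, a cell adhesion protein, held 5, the strongest with folds of 19.4 and 27.9 at chr9:27981379-27983192. Cdh13 had folds of 13.3 and 14.8, Nlgn1 of 11.5 and 21.7 and Ptprt of 11.05 and 16.1, while Nrxn3, Cntnap2 and Rbfox1 held none. Chromatin regulators held sites in 5 of 44 (4.78), and 38 of the 44 had a Foxr2 site at their own start, as had 43.1% of all 17740 genes. Arid1a, a BAF complex subunit, had folds of 17.7 and 23.0 at chr4:133729257-133731629. Hdac4, a histone deacetylase, had folds of 14.1 and 14.5, and Tet3 had folds of 12.4 and 20.04.

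**Figure D4:**
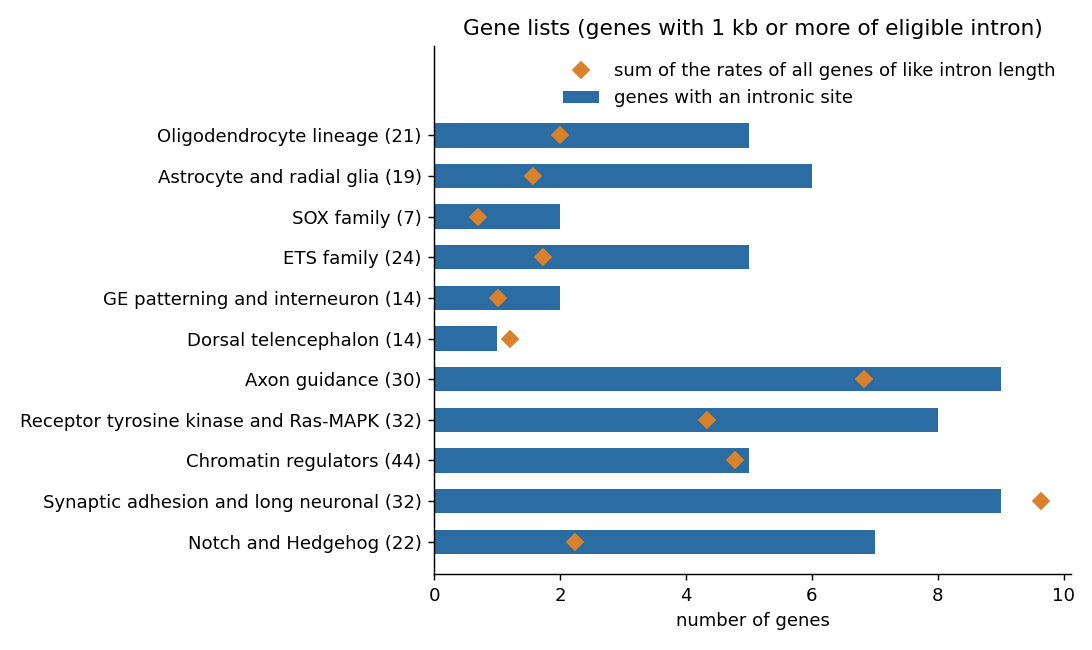
Number of genes with an intronic Foxr2 site in each of 11 lists (bars, with the number of genes that have at least 1 kb of eligible intron in brackets) and the sum of the shares of all genes of like intron length (diamonds). Astrocyte and radial glia genes (6 and 1.57), Notch and Hedgehog genes (7 and 2.23) and ETS genes (5 and 1.72) lie right of their diamonds, and synaptic genes (9 and 9.64) left of it.

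Sequence was not used to choose the sites. Of 22 motifs searched on both strands in the central 200 bp of 1399 sites, those of SOX, AP-1 and NFI factors were among the ones more frequent than in intronic DNA. SOX motifs (ACAATGG or ACAAAGG) were in 146 sites (10.4%, 95% interval 8.94 to 12.1), in 7.26% of all intronic windows and in 7.01% once these windows were weighted to the GC content of the sites. The AP-1 motif TGANTCA, bound by FOS and JUN, was in 118 sites (8.43%, 7.09 to 10.01), 6.04% of windows and 5.70% at the same GC content. The short NFI motif TTGGCA, a single arm of the palindrome, was in 183 sites (13.1%, 11.4 to 14.9), 9.74% of windows and 9.99%, while the full NFI palindrome was in 1 site (0.0715%). Homeobox motifs (TAATTA) were in 6.08% of sites, 7.2% of windows and 4.52% of those at the same GC content. The share of sites over that of windows at the same GC content was 1.49 for SOX, 1.48 for AP-1 and 1.31 for short NFI. It was higher, 1.76 and 1.62, for the PEA3-type ETS and KLF/SP motifs, which are described below.

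The motifs of OLIG, forkhead and TEAD factors were about as frequent as in intronic DNA. The OLIG E-boxes CAGATGG and CATATGG were in 6.29% of sites, 5.98% of windows and 6.38% at the same GC content. Forkhead motifs (TGTTTAC or TATTTAC), to which most forkhead proteins bind, were in 78 sites (5.58%, 4.49 to 6.90), 6.88% of windows and 5.02%. The TEAD motif ACATTCC was in 2.57% of sites and 2.72% of windows. A match is a string of letters and not a bound site.

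The ETS family has 2 forms of motif here that parted. The ELK-type form CCGGAAGT, with a CpG, was in 1 of 1399 intronic sites (0.0715%, 0.0126 to 0.404), 0.107% of windows and 3.48% of 8505 start sites. The PEA3-type form CAGGAAGT was in 38 intronic sites (2.72%, 1.99 to 3.71), 1.35% of windows and 1.55% at the same GC content, and in 1.55% of start sites. By Fisher's exact test, two-sided and adjusted by Benjamini-Hochberg over 44 tests, intronic and start sites differed in the ELK-type form (odds ratio 0.0198, adjusted p = 1.3e-17) and in the PEA3-type form (odds ratio 1.77, adjusted p = 0.0095). The site counts are from 1 pair of libraries, and sites are not replicates of a condition.

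Against start sites, 18 of 22 motifs differed (81.8%), 12 of them more frequent in introns. Homeobox motifs were in 6.08% of intronic and 1.72% of start sites (exact test, odds ratio 3.70, adjusted p = 3.2e-17), AP-1 in 8.43% and 2.85% (3.15, 1.3e-18), SOX in 10.4% and 5.09% (2.17, 2.2e-12), OLIG E-boxes in 6.29% and 2.87% (2.27, 1.0e-08) and the short NFI motif in 13.1% and 6.93% (2.02, 8.6e-13). KLF and SP factors bind promoters, and their motif (CCCGCCC) was in 3.29% of intronic sites, 24.99% of start sites, 0.882% of windows and 2.03% of windows at the GC content of the intronic sites (exact test, odds ratio 0.102, adjusted p = 8.8e-98). Start sites are much richer in GC. Among windows of 40 to 55% GC in both classes, a comparison added after the data were seen, 7 motifs differed by the same exact test. Among them AP-1 (odds ratio 1.91, adjusted p = 0.00037 by the exact test), OLIG E-boxes (1.61, 0.031) and SOX (1.504, 0.016) were more frequent in introns, and the ELK-type ETS motif (0 of 938 intronic sites, adjusted p = 3.6e-06), KLF/SP (0.327, 1.1e-05) and NF-Y (0.483, 0.012) less. The calls for homeobox motifs, the short NFI motif and the PEA3-type ETS motif were lost there (odds ratios 1.46, 1.22 and 1.84, adjusted p = 0.16, 0.25 and 0.078 by the exact test).

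Against intergenic sites, 2 of 22 motifs differed (9.09%), both less frequent in introns. CTCF, the insulator protein, had its motif in 1 intronic site (0.0715%), 12 of 1644 intergenic sites (0.730%) and 0.0401% of windows (exact test, odds ratio 0.0973, adjusted p = 0.011). KLF/SP was in 3.29% and 5.54% (exact test, odds ratio 0.580, adjusted p = 0.0083). For SOX (10.4% and 12.3%, adjusted p = 0.23) and AP-1 (8.43% and 10.5%, adjusted p = 0.13) no difference passed the threshold in the exact test, which does not show that the classes are alike. The CTCF and KLF/SP calls were lost in the exact test among windows of 40 to 55% GC (adjusted p = 0.16 and 0.23) and in windows at the summits.

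**Figure D5:**
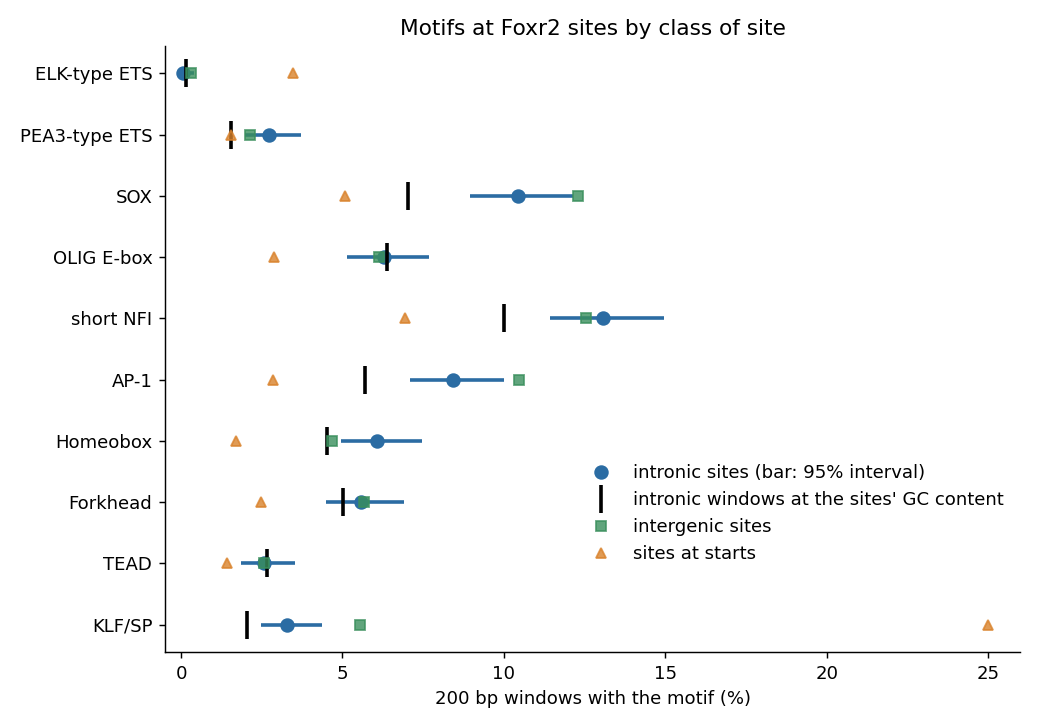
Share of 200 bp windows with each of 10 motifs at intronic sites (blue, with 95% Wilson intervals), intergenic sites (green), sites at starts (orange) and intronic windows weighted to the GC content of the sites (black). SOX motifs are in 10.4% of intronic sites and 7.01% of those windows, and the KLF/SP motif in 24.99% of start sites and 3.29% of intronic ones.

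The counts near the summits were set against those in the flanks. Within 100 bp of the midpoint of both summits SOX motifs occurred 1.70 times as often as beyond 800 bp (169 matches within, 199 in the wider flanks) and AP-1 1.58 times (127 and 161). KLF/SP matches were 1.90 times as frequent (56 and 59). AP-1 was not highest at the midpoint itself, with 20.01 to 26.4 matches per 1000 sites in each 50 bp within 100 bp of it and 39.3 and 35.7 at 150 to 200 bp on either side. SOX was highest at 150 to 200 bp on the side of lower coordinates, with 40.7, against 22.2 to 35.7 within 100 bp. PEA3-type ETS matches were 1.38 times as frequent (33 and 48), OLIG E-boxes 1.14 times (115 and 202), the short NFI motif 1.14 times (180 and 316) and TEAD 1.05 times. Homeobox matches were even (ratio 0.995). Split into 3 groups by the lower fold, which also chose the sites, the shares did not all move one way. From the weakest to the strongest group SOX was in 8.57%, 12.9% and 9.85%, AP-1 in 10.1%, 7.74% and 7.49%, and Forkhead in 4.93%, 4.95% and 6.85%. OLIG E-boxes were in 4.71%, 6.67% and 7.49% and the short NFI motif in 12.2%, 12.9% and 14.1%. These differences were not tested.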

How the data were processed

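CUT&RUN with a V5 antibody was measured in 2 Foxr2 p53LOF and 2 V5 control samples. Per the submitters' processing notes and the methods, the authors trimmed reads (Trimmomatic 0.39), aligned them to mm10 (BWA 0.7.17), removed duplicates (Picard 2.26.6) and called peaks per library (MACS2 2.2.7.1). The deposited fold enrichment is a ratio made by the authors, and the deposited −log10 p and q values and the score come from the same caller. The lists give no read totals. The fragments behind a fold were recovered with the background at which folds become whole numbers (within 0.02), which was 1.26 and 2.04 for Foxr2 p53LOF and 1.69 and 0.642 for the control.

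Sites, classes and host genes were computed with Python 3.11.15 and GENCODE M21 on GRCm38, counted from 1, and no site had a −log10 q of 6 or less in a replicate. Motifs were matched in the RefSeq sequence of GRCm38 in the central 200 bp of each site. Classes of site were compared by Fisher's exact test (scipy 1.17.1) at an adjusted p under 0.05. Intervals are 95% Wilson (shares) or Poisson (densities, folds) and cover counting error only. Nothing says the replicates were separate cultures. Lists' shares use 20 groups of intron length. The named genes are hosts of the 10 strongest sites by the lower fold, the 10 genes with the most sites, and up to 4 per list by fold. Others are named to list members with and without a site, and Setd5, Chn2 and Astn2 were named after their values were seen. The members, lists and motifs were chosen with earlier results of these data known. Some genes, 1 list and 1 motif, which stay in all counts and adjustments, are not reported here. The steps were checked on simulated data. Alternatives covered the fold and q limits, the control filter, overlap, length, distance, window and each replicate left out.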

Additional observations from a re-analysis of the deposited data

How the results depend on the processing

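With a minimum fold of 10 in place of 6, there were 301 intronic sites and 275 host genes, 41.2% of sites in the first intron, 38.2% of hosts with a site at their own start (21.1% of other genes) and 27 listed genes with a site. No share of genes of like intron length is given beside these 27. Of the motifs, 6 then differed from start sites and 0 from intergenic sites by Fisher's exact test (0 also at an unadjusted p under 0.05). With a −log10 q above 10 there were 901 sites, and 57.5% of hosts had a site at their own start (35.7% of others). Where the shared stretch had to cover at least 50% of each peak, the own-start share was 59.6% (38.8% of others). Over 5 kb from every start, 34.6% of sites were in the first intron. The share of bases there is not given for that distance, so this does not show whether the excess held. With windows at the summits, 0 motifs differed from intergenic sites (2 at an unadjusted p under 0.05) and 15 from start sites, against 18 in the central windows. Among windows of 40 to 55% GC, added after the data were seen, 1 motif differed from intergenic sites, the STAT motif (odds ratio 0.196, adjusted p = 0.022, against 0.466 and 0.086 over all windows, exact tests), in place of CTCF and KLF/SP, and 7 differed from start sites. The TCF/LEF odds ratio against start sites turned there from 1.79 to 0.748 (exact test, adjusted p = 0.51). Leaving out a replicate gave 1400 to 2107 sites, the most without Foxr2 p53LOF replicate 1, and 1 to 3 motifs that differed from intergenic sites. The causes of these changes were not tested beyond the smaller number of sites. No paired analysis was possible because no test compares the groups.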

Other observations

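The peaks come from 1 line and list no depth, so weak binding in introns could not be separated from open chromatin with these files, and 184 sites rest on the lowest number of fragments allowed in replicate 1. Of the 1400 sites, 4 were under 100 bp long, and the 17 bp site in Cubn had its replicate summits 2292 bp apart. Annotated starts and exons set which sites count as intronic. With those of protein-coding genes only, both changed at once, 1019 host genes were found in place of 965. Motif letters were searched exactly, so weaker forms of each motif were not counted.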
